A study of Mus musculus with 6 samples.

Results

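The WAP-domain and Kazal protease inhibitor genes of the mouse were followed in whole epididymides of WT (wild-type) and Ocln-KO adult mice. They were taken from the count table by symbol: every Wfdc gene and every Spink gene that carries a number, together with Eppin and Slpi. The rule found 33 of the 57127 genes listed, of which 20 are WAP-domain genes and 13 are Kazal genes. Their levels were not used to choose them, though earlier results of these data were known. 23 of the 33 (16 WAP-domain and 7 Kazal genes) passed the filter on low counts and could be tested, 6 had counts too low for a test, and 4 had no count in any library.

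Epithelia that face a lumen secrete small proteins that hold serine proteases in check. A WAP domain, also called a four-disulfide core, is a short module pinned by disulfide bonds, and a Kazal domain is another such module that offers an exposed loop to the active site of the protease. In the male tract these proteins are secreted into the fluid that surrounds maturing sperm, some of them coat the sperm surface, and several WAP proteins also have antibacterial activity. Eppin, which joins a WAP to a Kunitz domain, is the best known of them on sperm. Occludin, the product of Ocln, is a membrane protein of tight junctions.

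The study compared 3 libraries from WT mice with 3 libraries from Ocln-/- mice (called Ocln-KO), all adult, of the C57BL/6 strain and without further treatment. The deletion is not limited to a tissue in these animals, which were bred from heterozygous parents. The tissue is given as the whole epididymis, so fewer cells of a type, a smaller share of a region and less RNA per cell cannot be told apart. The methods speak both of RNA extracted separately from 3 pairs of mice and of pooled RNA, so n counts libraries, and p-values measure the spread between them. The sample records name another tissue in their extraction step. Crisp1, a secreted protein of the epididymal epithelium, was at 4439 to 16769 CPM (counts scaled to a common library size) in the 6 libraries, whereas Hoxa11, Hoxa13, Hoxd11 and Hoxd13, taken as markers of distal regions, had no count.

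Libraries held 30646424 to 38870780 counts. After scaling their effective sizes were 31860861 to 37410050, so that 1 count equals 0.0267 to 0.0314 CPM. Ocln itself had 3213, 2689 and 3409 counts in WT and 486, 489 and 503 in Ocln-KO, 5.65-fold less after scaling (log2 fold change -2.50, SE 0.09, edgeR quasi-likelihood FDR 0.000108). Genes were called at an FDR under 0.05 over the 19691 genes tested, and 770 went up and 992 went down in Ocln-KO (1175 and 674 when libraries were scaled by total counts alone). Ocln-KO replicate 3 stood apart from the other libraries on the first principal component, where it scored 86.3 against 17.7 and 29.1 for the other Ocln-KO libraries and -52.8 to -37 for WT. For the members it moved most, values are also given without it.

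1 inhibitor gene, Spink5, rose in Ocln-KO and none of the 23 fell by this test. The 1 of 23 higher is 4.35%, against a background of 3.91% of all genes tested, and the 0 lower stands against 5.04%. With a 2-fold change required in addition, Spink5 remained and the backgrounds were 1.49% higher and 1.7% lower. At an unadjusted p under 0.05, 2 members were higher (13.9% of all genes) and 7 were lower (15.2%). In 9 members (39.1%) each Ocln-KO library lay below each WT library, against 19.4% of all genes, and in 1 member (4.35%) each lay above, against 16.9%. The median log2 fold change of the 23 was -0.39, beside 0.01 over all genes tested, and it ranged from -1.46 to 2.31.

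The Ocln-KO libraries also differed more among themselves in these genes than the WT libraries did. The median SD of log2 levels (CPM plus 0.1) was 0.20 in WT and 0.53 in Ocln-KO, and it was larger in Ocln-KO for 19 of 23 members (82.6%), beside medians of 0.18 and 0.23 and a share of 60.5% over all genes tested. Ocln-KO replicate 3 was the lowest of its group for 11 members (47.8%, all genes 37.1%) and the highest for 5 (21.7%, all genes 35.8%).

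**Figure D1:**
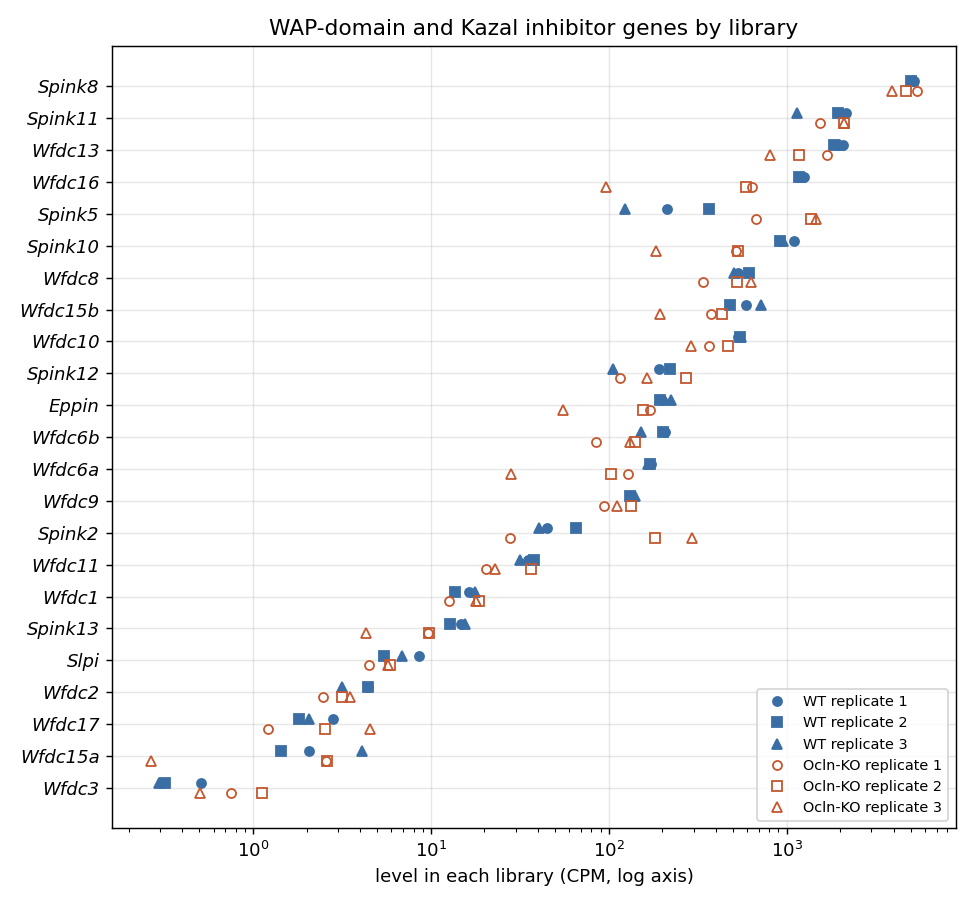
Level of each of the 23 tested inhibitor genes in each library, in CPM on a log axis, with filled symbols for WT and open symbols for Ocln-KO and 1 symbol shape per replicate number. Spink8 is at the top with 3896 to 5425 CPM, the WT libraries of most genes sit close together, and the triangle of Ocln-KO replicate 3 lies far to the left for Wfdc16 (96.6 CPM), Wfdc6a (28.3 CPM), Eppin (55.6 CPM) and Spink10 (184 CPM).

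Together the inhibitor genes took 1.29 to 1.41% of all counts in WT and 1.09 to 1.31% in Ocln-KO. The 20 WAP-domain genes summed to 5766, 5427 and 5717 CPM in the WT libraries and to 3935, 3790 and 2408 CPM in those of Ocln-KO, that is 5637 ± 183 against 3378 ± 843 (SD, n = 3). No WT and Ocln-KO library overlapped in this sum. The 13 Kazal genes summed to 8928, 8507 and 7512 CPM in the WT libraries and to 8310, 9180 and 8118 CPM in those of Ocln-KO, or 8316 ± 727 against 8536 ± 566, and here the libraries overlapped. Without Spink8, which alone made up over 3896 CPM in each library, the other Kazal genes summed to 3719, 3526 and 2385 CPM in the WT libraries and to 2885, 4484 and 4222 CPM in those of Ocln-KO.

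**Figure D2:**
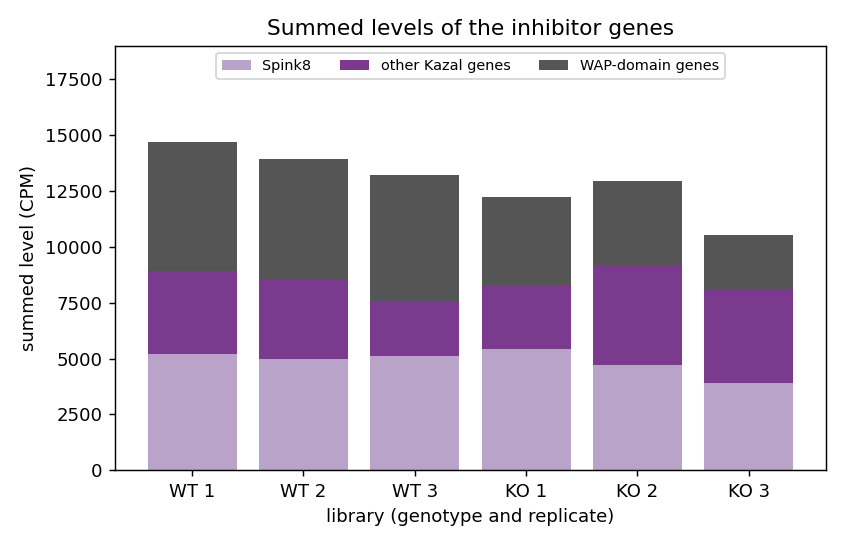
Summed level of the inhibitor genes in each of the 6 libraries, in CPM from 0, split into Spink8, the other Kazal genes and the WAP-domain genes. The WAP-domain part runs from 5427 to 5766 CPM in WT and from 2408 to 3935 CPM in Ocln-KO, and it is smallest in Ocln-KO replicate 3.

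Per kilobase of exon, Spink8 was the most abundant inhibitor transcript of the WT epididymis, with 6219 ± 141 CPM per kb (SD, n = 3). Wfdc13 followed with 1831 ± 108 CPM per kb, and these differ by more than their spread. Next came Wfdc10 with 1191 ± 25.7, Wfdc16 with 1085 ± 38, Wfdc15b with 1041 ± 203 and Spink11 with 703 ± 214 CPM per kb. Wfdc10 and Wfdc16 differed by more than the sum of their SDs, while Wfdc15b lay within its spread of both. In Ocln-KO the order on the same scale was Spink8 at 5691 ± 931, Wfdc13 at 1141 ± 414, Wfdc10 at 820 ± 194, Spink11 at 774 ± 133, Wfdc15b at 583 ± 219 and Wfdc16 at 395 ± 268 CPM per kb, and below Spink8 neighbouring genes did not differ beyond their spread. By its mean Wfdc16 thus moved from just below Wfdc10 in WT to the last of these genes in Ocln-KO. In both groups its place against Wfdc15b was within their spread. Slpi, the secretory leukocyte protease inhibitor that binds neutrophil elastase and cathepsin G, was a minor transcript with 5.92 ± 1.33 CPM per kb in WT, and so was Wfdc2, known in humans as epididymal protein HE4, with 3.53 ± 0.642 CPM per kb.

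16 of the WAP-domain genes lie together on chromosome 2, between Wfdc5, which starts at position 164176327 (GRCm38), and Wfdc3, which ends at position 164745931. 14 of them were tested, and 13 had a log2 fold change below 0 and 1 above, with a median of -0.51. None passed the test, and in 7 of the 14 no WT library overlapped with an Ocln-KO library, each time with Ocln-KO below WT (19.4% of all genes tested did the same). These 7 were Wfdc16, Wfdc13, Wfdc10, Wfdc15b, Wfdc6a, Wfdc6b and Eppin. By DESeq2, the tool the study used, at an FDR alone and without the 2-fold change that the study also required, 6 members (26.1% of 23, against 8.67% of all genes) had an FDR under 0.05 and lower levels, namely Wfdc10, Wfdc13, Wfdc15b, Wfdc6b, Spink10 and Spink13, and 1 (4.35%, against 8.15%) was higher. With the 2-fold change, DESeq2 called 1 member lower, Spink10 (4.35%, against 2.65%), and 1 higher, Spink5 (4.35%, against 2.73%). Without the filter on low counts edgeR called Wfdc10, Wfdc15b, Wfdc6b and Spink10 lower, which is 4 of 29 members (13.8%) against 3.79% of all genes.

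**Figure D3:**
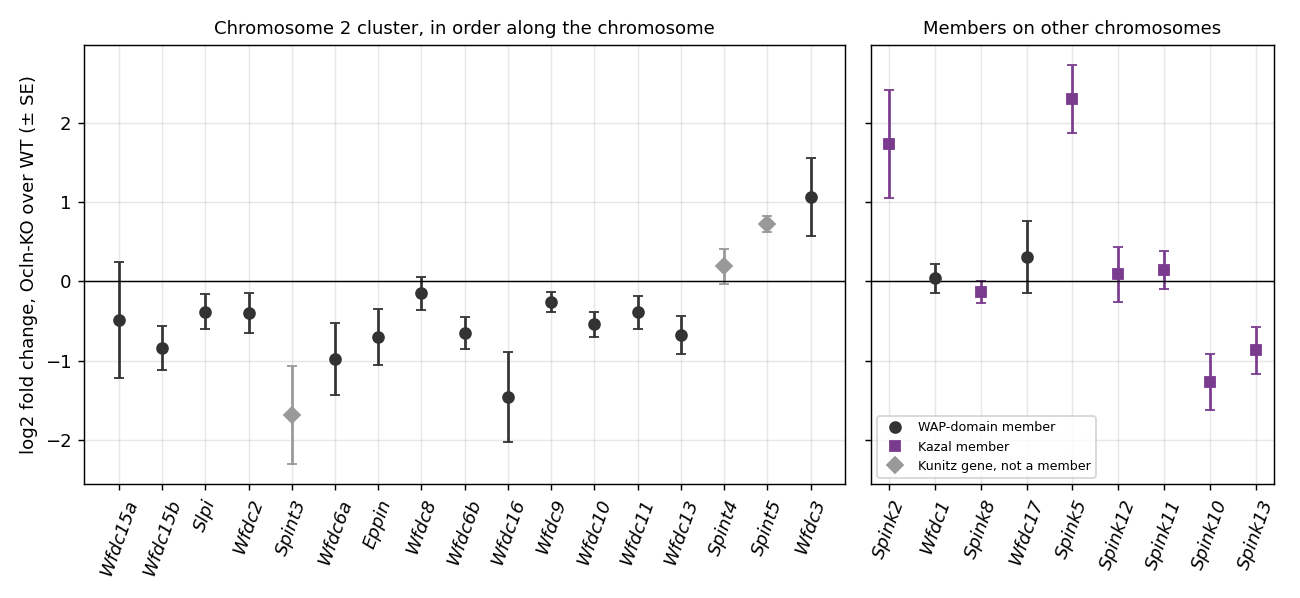
Log2 fold change of Ocln-KO over WT with its standard error, for the tested genes of the chromosome 2 cluster in their order along the chromosome (left) and for the other tested members (right). WAP-domain genes are circles, Kazal genes squares and the Kunitz genes of the cluster, which are not members, grey diamonds. From Wfdc15a to Wfdc13 each WAP-domain gene lies below 0, and at the right end of the cluster Spint5 (0.73) and Wfdc3 (1.07) lie above it.

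Promoter windows of 3 of these genes were read from RefSeq (GRCm38.p6), each of 300 bases, most of them upstream of the gene start, on the strand of the gene. Eppin and Wfdc15b are shown because each holds TGTTCT, the core that the androgen receptor and other steroid receptors bind, which is printed in capitals. In Wfdc15b it lies upstream of the gene as GENCODE draws it. In Eppin it lies inside the gene, near the end of the window, and so not upstream of the start. Wfdc16 is shown because its fold change was the lowest of all 23 members, and it holds none of the motifs searched.
Eppin, chr2:164593522-164593821, minus strand: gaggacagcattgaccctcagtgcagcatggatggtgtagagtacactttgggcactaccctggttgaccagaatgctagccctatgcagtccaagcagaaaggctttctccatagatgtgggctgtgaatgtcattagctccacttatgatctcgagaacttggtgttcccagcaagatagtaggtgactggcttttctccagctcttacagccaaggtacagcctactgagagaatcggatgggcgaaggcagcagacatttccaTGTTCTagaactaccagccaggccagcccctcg
Wfdc15b, chr2:164221614-164221913, minus strand: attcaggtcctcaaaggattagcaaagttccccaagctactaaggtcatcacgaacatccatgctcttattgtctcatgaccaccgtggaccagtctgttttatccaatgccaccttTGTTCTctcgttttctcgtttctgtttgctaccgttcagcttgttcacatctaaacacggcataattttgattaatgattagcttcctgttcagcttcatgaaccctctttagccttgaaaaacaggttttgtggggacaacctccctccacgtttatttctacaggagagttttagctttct
Wfdc16, chr2:164638753-164639052, minus strand: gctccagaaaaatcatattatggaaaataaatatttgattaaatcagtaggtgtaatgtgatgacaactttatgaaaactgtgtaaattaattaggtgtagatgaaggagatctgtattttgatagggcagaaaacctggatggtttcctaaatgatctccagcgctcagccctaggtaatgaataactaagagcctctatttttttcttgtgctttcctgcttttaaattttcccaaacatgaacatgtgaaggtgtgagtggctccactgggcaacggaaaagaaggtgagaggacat
The search covered both strands of the 22 windows that RefSeq gives for 17 of the members. TGTTCT (or AGAACA) was found in 4 of the 22 member windows (Eppin, Wfdc11, Wfdc15b and Wfdc3) and in 19% of all 32851 promoter windows, a similar share. TATAAA (or TTTATA), the TATA box, was found in 3 of the 22 (Wfdc17, Wfdc18 and Wfdc8) and in 13.6% of all windows, and TGTTTAC (or GTAAACA), a forkhead motif, in 0 and in 3.65%. The members whose libraries did not overlap thus include Eppin and Wfdc15b with TGTTCT and Wfdc16 without it. Wfdc11 and Wfdc3 hold TGTTCT too, and their libraries overlapped between genotypes. A match describes the letters only.

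Wfdc16 had the largest negative log2 fold change of the 23. Its levels were 1257, 1173 and 1204 CPM in the WT libraries and 636, 589 and 96.6 CPM in those of Ocln-KO. The WT libraries lay within 1.07-fold of each other, the Ocln-KO libraries spread over 6.58-fold, and all of them lay below WT. The log2 fold change of -1.46 (SE 0.57) did not pass the test (edgeR FDR 0.138). Without Ocln-KO replicate 3 it was smaller, -0.98, but its SE shrank to 0.11 and the FDR was 0.00227. With that library left out, 3 members were called lower (13% of 23, against 4.63% of all genes), Wfdc16, Spink10 and Wfdc6a.

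Wfdc13, the most abundant WAP-domain transcript, had 2071, 1842 and 1986 CPM in the WT libraries and 1695, 1172 and 811 CPM in those of Ocln-KO. Its groups did not overlap, and the log2 fold change was -0.68 (SE 0.24, edgeR FDR 0.11), or -0.46 (FDR 0.11) without Ocln-KO replicate 3. It passed the test without Ocln-KO replicate 1 (-0.98, edgeR FDR 0.0242) and in no other fit with a library left out. Wfdc10, in the same stretch, had 534, 550 and 557 CPM in the WT libraries and 368, 469 and 292 CPM in those of Ocln-KO. Here too each Ocln-KO library was below each WT library, with a log2 fold change of -0.54 (SE 0.16, edgeR FDR 0.0773), or -0.38 (FDR 0.0954) without Ocln-KO replicate 3. Of the fits with a library left out, Wfdc10 passed only in that without Ocln-KO replicate 2 (-0.73, edgeR FDR 0.0442). Wfdc15b, at the other end of the cluster, had 589, 482 and 714 CPM in the WT libraries and 375, 433 and 193 CPM in those of Ocln-KO. The log2 fold change was -0.84 (SE 0.28, edgeR FDR 0.102), or -0.56 (FDR 0.077) without Ocln-KO replicate 3, and the groups were separated by a narrow gap.

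Eppin encodes the sperm-coating inhibitor that binds semenogelin, and it lies at chr2:164588343-164593594 on the minus strand. It had 200, 195 and 223 CPM in the WT libraries and 171, 155 and 55.6 CPM in those of Ocln-KO. The first 2 Ocln-KO libraries lay just under WT and replicate 3 far below, and the log2 fold change of -0.70 (SE 0.35, edgeR FDR 0.235) was -0.34 (SE 0.10, FDR 0.0806) without replicate 3. Of the proteins that Eppin is known to meet on sperm, Ltf (lactoferrin) fell from 117, 136 and 260 CPM in WT to 70.8, 76 and 66.4 CPM in Ocln-KO (log2 fold change -1.27, SE 0.28, edgeR FDR 0.0354), while Clu (clusterin) had 5209, 6146 and 4305 CPM against 5038, 8787 and 13137 CPM and was not called (FDR 0.151). Svs2, the mouse relative of semenogelin made in the seminal vesicle, had no count in any library.

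Wfdc6a and Wfdc6b share much of their sequence, and a RefSeq window of each is shown because it holds a stretch common to both: capitals mark the longest run that they share without a mismatch, 70 bases long. The run lies before the RefSeq start that the window was cut around, but inside both genes as GENCODE draws them, so it is not promoter sequence by both annotations. RefSeq gives Wfdc6a a further window upstream, which is not shown.
Wfdc6a, chr2:164585128-164585427, minus strand: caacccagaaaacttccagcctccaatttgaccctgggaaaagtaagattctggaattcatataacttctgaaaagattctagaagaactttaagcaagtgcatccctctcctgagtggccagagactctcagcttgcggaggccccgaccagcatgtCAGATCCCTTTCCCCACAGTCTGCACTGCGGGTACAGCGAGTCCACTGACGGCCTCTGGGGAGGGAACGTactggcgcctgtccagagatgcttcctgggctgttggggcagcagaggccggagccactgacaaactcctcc
Wfdc6b, chr2:164613450-164613749, plus strand: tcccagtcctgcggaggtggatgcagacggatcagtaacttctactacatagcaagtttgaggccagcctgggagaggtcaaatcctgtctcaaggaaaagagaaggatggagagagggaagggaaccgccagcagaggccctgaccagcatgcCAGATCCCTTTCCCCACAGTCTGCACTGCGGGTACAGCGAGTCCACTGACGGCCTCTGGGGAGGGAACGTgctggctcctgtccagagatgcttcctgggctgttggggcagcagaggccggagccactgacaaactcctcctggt
Their transcripts share 332 stretches of 75 bases, 41.9% of those of Wfdc6a and 36.5% of those of Wfdc6b, so the split of reads between them is uncertain. Wfdc6b also starts head to head with Wfdc8, and their exons overlap by 105 bases on opposite strands (10.7% of the exon bases of Wfdc6b). Whether reads were counted by strand is not stated, so reads from this overlap could have been given to either gene or to neither.

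Wfdc6a had 172, 171 and 166 CPM in the WT libraries and 128, 103 and 28.3 CPM in those of Ocln-KO. The WT libraries were nearly equal, and the Ocln-KO libraries lay below them, replicate 3 by far the most, with a log2 fold change of -0.98 (SE 0.45, edgeR FDR 0.192) that became -0.56 (SE 0.11, FDR 0.0215) without replicate 3. Wfdc6b had 207, 201 and 151 CPM in the WT libraries and 85, 140 and 132 CPM in those of Ocln-KO. In this copy replicate 1 was the lowest of the Ocln-KO libraries, and the log2 fold change was -0.65 (SE 0.20, edgeR FDR 0.0825). Wfdc8, the partner across the shared start, had 532, 617 and 509 CPM in the WT libraries and 340, 524 and 634 CPM in those of Ocln-KO. Its groups overlapped, and its log2 fold change was -0.15 (SE 0.21, edgeR FDR 0.687).

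The other chromosome 2 members overlapped between genotypes or were scarce. Wfdc9 and Wfdc11, the neighbours of Wfdc10, had log2 fold changes of -0.26 (SE 0.13, edgeR FDR 0.221) and -0.39 (SE 0.21, FDR 0.257). Wfdc11 passed the test without Ocln-KO replicate 2 (-0.69, edgeR FDR 0.0486) and in no other alternative. Slpi was at 5.48 to 8.61 CPM in WT and 4.49 to 5.87 CPM in Ocln-KO, and Wfdc2 at 3.18 to 4.45 and 2.46 to 3.52 CPM. Neither was called (FDR 0.307 and 0.342). Wfdc15a had 1.44 to 4.09 CPM in WT and 0.266 to 2.61 CPM in Ocln-KO, and Wfdc3 0.296 to 0.508 and 0.503 to 1.13 CPM. Wfdc3 was the 1 tested WAP-domain gene of the cluster with a positive log2 fold change (1.07, SE 0.49, edgeR FDR 0.194).

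3 Kunitz inhibitor genes, which carry another kind of protease-binding module, lie between these WAP-domain genes and did not all go the same way. Spint3, next to Wfdc6a, had 212, 178 and 263 CPM in the WT libraries and 99.5, 89.6 and 12.6 CPM in those of Ocln-KO, with replicate 3 again lowest (log2 fold change -1.69, SE 0.62, edgeR FDR 0.119). Without that library the log2 fold change was -1.20 (SE 0.16) and passed the test (FDR 0.00551). Spint4 had 3353, 2987 and 3137 CPM in the WT libraries and 4993, 2973 and 2826 CPM in those of Ocln-KO, and its groups overlapped (FDR 0.615). Spint5, between Wfdc13 and Wfdc3, rose from 336, 296 and 311 CPM in WT to 539, 480 and 546 CPM in Ocln-KO, with each Ocln-KO library above each WT library (log2 fold change 0.73, SE 0.10, edgeR FDR 0.0128).

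Among the WAP-domain genes outside the cluster, Wfdc1 on chromosome 8 and Wfdc17 on chromosome 11 were tested and had log2 fold changes of 0.04 (SE 0.18, edgeR FDR 0.907) and 0.31 (SE 0.46, FDR 0.702). Wfdc17, which activated macrophages are known to express, was at 1.82 to 2.81 CPM in WT and 1.22 to 4.53 CPM in Ocln-KO. The macrophage markers summed to 205 to 243 CPM in WT and 249 to 439 CPM in Ocln-KO, with 9 of 9 tested and 0 called. Wfdc18 had 0 counts in each WT library and 0, 1 and 7 counts in Ocln-KO. A count of 0 allows up to 3 counts, equal to 0.0802 to 0.0942 CPM. Only Ocln-KO replicate 3 (0.207 CPM) was above that, and the gene was too scarce for a test, so no fold is given.

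The Kazal genes did not share a direction: 4 of the 7 tested had a positive and 3 a negative log2 fold change, with a median of 0.09. Spink5 rose, Spink10 and Spink13 had libraries below WT without overlap, and Spink8, Spink11, Spink12 and Spink2 overlapped between genotypes. 9 of the 13 lie on chromosome 18, and Spink8, Spink2 and Spink4 on chromosomes 9, 5 and 4.

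Spink5 encodes LEKTI, a protein with many Kazal-type domains that restrains kallikreins of the skin, and lies at chr18:43963235-44022501 on the plus strand. It had 214, 368 and 124 CPM in the WT libraries and 675, 1371 and 1462 CPM in those of Ocln-KO. Each Ocln-KO library was above each WT library, the WT libraries spanned 2.95-fold and the Ocln-KO libraries 2.17-fold. The mean was 4.97-fold higher (log2 fold change 2.31, SE 0.43, edgeR FDR 0.0251), and per kilobase of exon it went from 49.2 ± 25.7 to 244 ± 90 CPM per kb (SD, n = 3). Without Ocln-KO replicate 3 the log2 fold change was 2.13 and the FDR 0.0208. The call was lost without WT replicate 1 (log2 fold change 2.25, FDR 0.113), without WT replicate 3 (2.01, FDR 0.089) and without Ocln-KO replicate 2 (2.18, FDR 0.0612).

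The proteases that Spink5 is best known for were nearly silent. Of 19 kallikrein and trypsin genes listed, 12 had no count in any library, Klk5 and Klk7 among them, and only Klk1 passed the filter, with 0.293 to 0.862 CPM in WT and 0.251 to 0.355 CPM in Ocln-KO (log2 fold change -0.97, SE 0.54, edgeR FDR 0.276). Of the 9 membrane-bound and related serine proteases of epithelia, 6 were tested, 2 rose and 1 fell. St14, encoding matriptase, rose from 130, 134 and 137 CPM to 205, 170 and 178 CPM (log2 fold change 0.46, SE 0.10, edgeR FDR 0.0322). Tmprss4 rose from 0.241, 0.0293 and 0.889 CPM to 4.08, 7.82 and 2.57 CPM (log2 fold change 3.62, SE 0.85, edgeR FDR 0.0416). Its WT libraries held only 9, 1 and 33 counts, so the size of this fold is uncertain. Hpn, encoding hepsin, fell from 31, 25 and 20.3 CPM to 5.64, 8.51 and 5.5 CPM (log2 fold change -1.96, SE 0.23, edgeR FDR 0.00863).

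A gene of the proximal epididymis moved with Spink5 from library to library. This was Gpx5, the glutathione peroxidase secreted in the caput, singled out after its values were seen. It had 54.5, 172 and 26.3 CPM in the WT libraries and 256, 7264 and 10039 CPM in those of Ocln-KO (edgeR FDR 0.0359), and it put the 6 libraries in the same order as Spink5, from WT replicate 3 at the bottom through WT replicates 1 and 2 to Ocln-KO replicates 1, 2 and 3. The first principal component, with 47.2% of the variance, gave that order as well (-52.8, -43.3, -37, 17.7, 29.1 and 86.3). The order is therefore not particular to these 2 genes, and the share of all genes that have it was not computed. The 12 initial segment and caput markers together gave 13692, 14816 and 10337 CPM in the WT libraries and 8164, 23348 and 23556 CPM in those of Ocln-KO. Without Gpx5 the sum was 13637, 14644 and 10310 CPM in WT against 7907, 16084 and 13517 CPM, which overlap. 8 of them were tested and 1, Gpx5, was called. The median of their log2 fold changes was -0.02, and the other 7 ran from -0.33 (Crisp4) to 0.36 (Ros1). Within this list Lcn5, a lipocalin of the caput, had 5279, 5580 and 3926 CPM against 2479, 6218 and 6476 CPM and was not called (FDR 0.956). Lcn9, Adam28 and Cst11 had at most 5 counts in a library, and Rnase10, Cst8 and Lcn8 were at most at 2.3 CPM. The part of these genes in the rise of Spink5 was not tested.

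**Figure D4:**
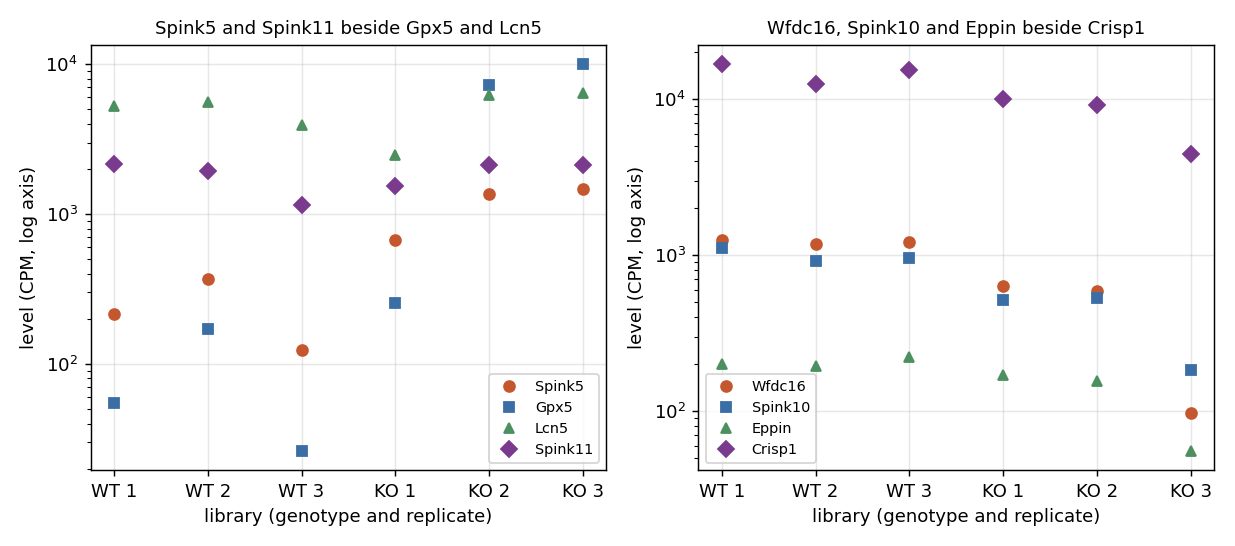
Level in each library, in CPM on a log axis, of Spink5 and Spink11 beside the caput genes Gpx5 and Lcn5 (left) and of Wfdc16, Spink10 and Eppin beside Crisp1 (right). Spink5 and Gpx5 order the 6 libraries alike, as the first principal component over all genes tested does. Gpx5 runs from 26.3 to 10039 CPM, and Wfdc16 and Crisp1 are both lowest in Ocln-KO replicate 3 (96.6 and 4439 CPM).

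Spink8, the most abundant inhibitor gene, was steady in WT at 5209, 4981 and 5127 CPM and had 5425, 4696 and 3896 CPM in Ocln-KO. The groups overlapped, and the log2 fold change was -0.13 (SE 0.14, edgeR FDR 0.599), or -0.01 (SE 0.12) without Ocln-KO replicate 3. Spink11 had 2149, 1944 and 1144 CPM in the WT libraries and 1540, 2115 and 2113 CPM in those of Ocln-KO, so the lowest and the highest library were both WT, with a log2 fold change of 0.14 (SE 0.24, edgeR FDR 0.744). Spink12 had 192, 222 and 106 CPM in the WT libraries and 115, 273 and 164 CPM in those of Ocln-KO (log2 fold change 0.09, SE 0.35, edgeR FDR 0.894). In Spink11 and Spink12, as in Spink5, WT replicate 3 was the lowest WT library.

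Spink10 had 1105, 913 and 954 CPM in the WT libraries and 517, 533 and 184 CPM in those of Ocln-KO. All Ocln-KO libraries lay below WT, replicate 3 by the most, with 2.41-fold less on average (log2 fold change -1.27, SE 0.35, edgeR FDR 0.0638). Without replicate 3 the log2 fold change was -0.92 (SE 0.12) and passed the test (FDR 0.00479). Spink13, an inhibitor described on sperm of the rat epididymis, had 14.8, 12.8 and 15.6 CPM in the WT libraries and 9.63, 9.79 and 4.29 CPM in those of Ocln-KO, again without overlap and with replicate 3 lowest (log2 fold change -0.87, SE 0.30, edgeR FDR 0.104). Without replicate 3 it was -0.57 (FDR 0.0638). The spans of Spink10 and Spink13 overlap on opposite strands, but their annotated exons do not.

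Spink2, the inhibitor of the acrosome in the male germ line, had 45.2, 65.3 and 40.5 CPM in the WT libraries and 27.9, 182 and 294 CPM in those of Ocln-KO. Ocln-KO replicate 1 was the lowest of the 6 libraries and replicates 2 and 3 were the highest, a 10.5-fold range, and the log2 fold change of 1.74 (SE 0.68) did not pass the test (edgeR FDR 0.138). It passed without Ocln-KO replicate 1 (2.25, FDR 0.0115). The 8 genes of spermatids and sperm summed to 297 to 370 CPM in the WT libraries and to 408, 412 and 96.5 CPM in those of Ocln-KO replicates 1, 2 and 3, with 8 tested and 0 called, so they were lowest in the library in which Spink2 was highest. 7 sperm serine proteases were also listed, and of 4 tested none was called (edgeR, FDR under 0.05).

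Leaving out Ocln-KO replicate 3 brought 17 of the 23 log2 fold changes nearer to 0 and moved 6 away from it. The same count was not made over all genes tested, so this is not shown to be particular to the inhibitor genes. The lowest log2 fold change went from -1.46 to -0.98, both times at Wfdc16, and Spink2 went from 1.74 to 1.07. Wfdc15a, Wfdc17 and Wfdc1 changed sign, from -0.49 to 0.02, from 0.31 to -0.25 and from 0.04 to -0.03. None of these 3 was called in either fit.

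**Figure D5:**
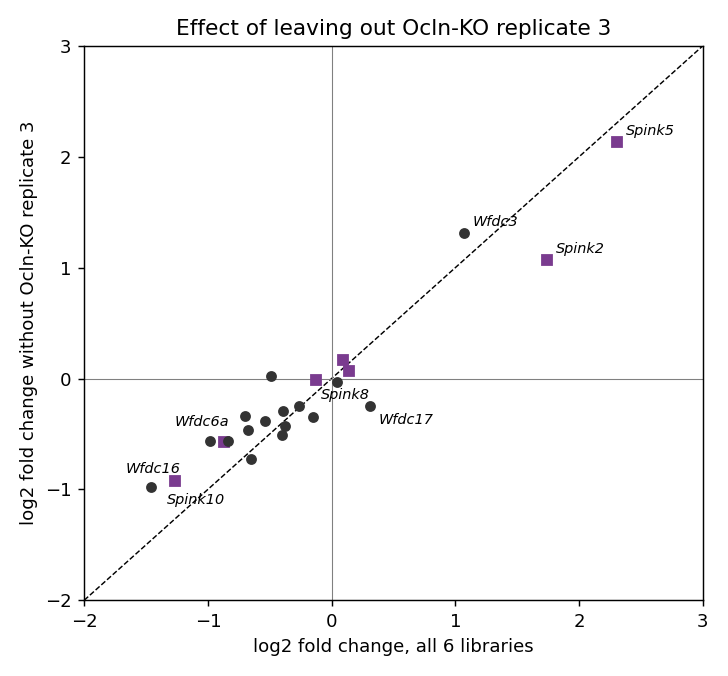
Log2 fold change of each tested member without Ocln-KO replicate 3 (vertical) against that with all 6 libraries (horizontal), with WAP-domain genes as circles, Kazal genes as squares and a dashed line where both are equal. Wfdc16 (-1.46 and -0.98), Spink10 (-1.27 and -0.92) and Wfdc6a (-0.98 and -0.56) lie left of the line at the lower end, and Spink5 (2.31 and 2.13) stays at the upper end.

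Markers of other regions and cells were measured in the same libraries. The 6 markers of the distal epididymis summed to 16769, 12488 and 15417 CPM in the WT libraries and to 9957, 9160 and 4439 CPM in those of Ocln-KO, nearly all of it Crisp1, the 1 marker tested (log2 fold change -0.92, SE 0.29, edgeR FDR 0.0855, or -0.64 and FDR 0.0431 without Ocln-KO replicate 3). Crisp1 ordered the 6 libraries as Wfdc16 did. The share of all genes with this order was not computed, and Ocln-KO replicate 3 was the lowest of its group in 37.1% of all genes tested. The 5 clear-cell markers gave 173 to 249 CPM in WT and 54 to 97.1 CPM in Ocln-KO, and 3 of them fell (Foxi1, Atp6v1b1 and Atp6v0d2). The 4 basal-cell markers gave 205 to 210 CPM in WT and 210 to 251 CPM in Ocln-KO, and Krt14 rose. The 9 accessory gland genes gave only 11.8 to 14.5 CPM in WT and 1.07 to 6.94 CPM in Ocln-KO, with 1 tested and 0 called, and Svs2, Svs3a, Svs3b and Pbsn at 0. The part of any of these in the members' values was not tested.

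Of the 10 members that could not be tested, Spink4, Spink7, Spink14, Wfdc5, Wfdc12 and Wfdc18 had a few counts, and Spink1, Spink3, Spink6 and Wfdc21 had none. Spink3 is an older symbol of Spink1, and the table lists an older symbol of Wfdc21 as well, also at 0. Of 505 protein-coding genes listed under both symbols 69 (13.7%) had no count, and of those listed under a single symbol 3220 of 20088 (16%) had none.

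Other genes with WAP or Kazal-type modules, and the other proteases and inhibitors of the pathway, changed in both directions. Of 26 further genes with such modules 23 were tested, and 2 rose and 1 fell. Fst, encoding the activin-binding protein follistatin, rose from 1.79, 1.55 and 1.37 CPM to 4.86, 3.61 and 8.02 CPM (log2 fold change 1.80, SE 0.34, edgeR FDR 0.0257). Sparcl1, a matricellular protein, rose from 82.4, 85.1 and 77.8 CPM to 121, 131 and 174 CPM (log2 fold change 0.80, SE 0.14, edgeR FDR 0.0225). Htra1, a secreted serine protease that carries a Kazal-like module, fell from 88.5, 74.6 and 75.8 CPM to 31.6, 38.7 and 32.7 CPM (log2 fold change -1.21, SE 0.12, edgeR FDR 0.00614). In these genes no WT library overlapped with an Ocln-KO library.

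Of 10 Kunitz inhibitors 8 were tested, and Spint5 rose and App fell. App, whose longer forms carry a Kunitz domain, went from 595, 519 and 578 CPM to 426, 374 and 325 CPM (log2 fold change -0.59, SE 0.12, edgeR FDR 0.0315). The neutrophil proteases that Slpi is known to inhibit were scarce: Elane (neutrophil elastase) had no count, and Ctsg (cathepsin G) had at most 11 counts in a library. The 9 neutrophil markers summed to 1.1 to 2.11 CPM in WT and 1.96 to 4.94 CPM in Ocln-KO, with 1 tested and 0 called. Of the 7 neutrophil and mast cell proteases 2 were tested, and Cma1, the mast cell chymase, rose from 0.187, 0.264 and 0.188 CPM to 1.18, 1.22 and 0.888 CPM (log2 fold change 2.35, SE 0.43, edgeR FDR 0.0241). Over all the pathway lists 6 genes rose and 4 fell, while 3.91% of all genes tested rose and 5.04% fell. The lists were chosen with earlier results of these data known, so these counts are given as a description only.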

How the data were processed

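RNA of whole epididymis from 3 WT and 3 Ocln-KO libraries was depleted of rRNA and sequenced in a single lane from directional libraries. The authors cleaned the paired reads, aligned them to GRCm38 with HISAT2 (2.0.4 in the submitters' processing notes) and counted them per gene with HTSeq; the values they deposited are raw counts, and counting mode, strand setting and treatment of multiply aligned reads are not given in the sources used here. Columns were matched by name and replicate number (0 unmatched).

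The whole table was tested in R 4.3.3 with edgeR 4.0.16 (filterByExpr, TMM, glmQLFit, glmQLFTest), with Benjamini-Hochberg FDR over 19691 of the 32046 genes with a count, and a call at FDR under 0.05. SE is the log2 fold change over the square root of F. CPM use effective library sizes, and lengths and positions come from GENCODE M21. Alternatives used DESeq2 1.42.0, limma-voom (limma 3.58.1), other scalings and filters, a replicate block and leaving out each library. Scripts were tested on simulated counts.

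Replicate numbers are shared by the genotypes, but deviations of same-numbered libraries correlated at -0.053, -0.031 and -0.0026, so they were not paired. Replicates differed beyond counting noise. Members, gene lists and the rule for naming genes (called list genes, and values of called, non-overlapping or abundant members) were chosen with earlier results of these data known. Totals were 30646424 to 38870780 counts, and effective sizes of 31860861 to 37410050 put 3 counts at 0.0802 to 0.0942 CPM, which covers counting error only.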

Additional observations from a re-analysis of the deposited data

How the results depend on the processing

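The 14 alternatives kept Ocln lower (log2 fold change -2.56 to -2.41, called in each). Spink5 kept its direction (2.01 to 2.79) and was called in 10 of 14, not with the replicate block (2.35, FDR 0.0795) nor without WT replicate 1, WT replicate 3 or Ocln-KO replicate 2. Members called higher were 0 with the replicate block and 0 to 2 with a library left out. Members called lower were 0 as reported, 6 by DESeq2 (1 with a 2-fold change as well, a setting chosen after seeing the data), 4 without the count filter and 0 to 3 with a library left out. Of the pathway lists, 6 genes were higher and 4 lower, 0 and 0 with the replicate block, and 0 to 8 and 1 to 5 with a library left out. With the block, over all genes, 10 were called higher and 31 lower, and the same-numbered libraries did not deviate together. Calls over all genes dropped without WT replicate 1 (4 higher, 19 lower), 2 (85 and 145) or 3 (16 and 40) and without Ocln-KO replicate 2 (220 and 342), but not without Ocln-KO replicate 1 (782 and 875) or 3 (748 and 944).

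With a library left out, log2 fold changes ran from -0.09 to 0.32 for Spink11, from -0.31 to 0.34 for Spink12, from -0.06 to 0.20 for Wfdc1, from -0.84 to 0.05 for Wfdc15a, from -0.25 to 0.67 for Wfdc17 and from -0.35 to 0.07 for Wfdc8, changing sign; none was called. Wfdc15a could not be tested with at least 10 counts in every library. Scaling by total counts moved the median of all genes to 0.09. The spread between Ocln-KO libraries limits Wfdc16 and Spink2. The cause of these changes was not tested.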
